A study of Mus musculus with 16 samples.

Results

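RGS proteins (regulators of G-protein signalling) end the signal of G-protein-coupled receptors, and 9 of their genes, Rgs1, Rgs2, Rgs3, Rgs10, Rgs13, Rgs14, Rgs16, Rgs18 and Rgs19, were followed through antigen activation, dexamethasone treatment and loss of the phosphatase PEP in mouse mast cells. The members were taken by name, as the rows of the deposited count files whose Ensembl identifier carries one of these symbols, and all 9 were found among 39179 gene rows. RNA was measured in bone-marrow derived mast cells (BMMCs) grown for 4 weeks from male C57BL/6 mice aged 8 to 10 weeks, either wild type (PEP+/+) or PEP-/- and so without the PEST-domain-enriched tyrosine phosphatase encoded by Ptpn22. Cells of each genotype were sensitized for 3 h with IgE at 0.05 µg/ml as the labels state it, while the methods of the study give a higher dose (IgE), or sensitized and then activated for 1 h with the antigen dinitrophenol on albumin at 200 ng/ml (IgE DNP). The other 2 treatments added the glucocorticoid dexamethasone at 100 nM for 8 h, without antigen (IgE DEX) or with it (IgE DNP DEX). Each of the 8 conditions had 2 replicates, 16 samples in all, and the labels number the first set 1 to 8 and letter the second set A to H. The replicates are called biological, but the sources do not say whether they came from different mice, so p-values measure the spread between these samples.

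A heptahelical receptor that binds its ligand makes the alpha subunit of a G protein exchange GDP for GTP, and the subunit signals until it hydrolyses the GTP. The RGS domain speeds up that hydrolysis, so RGS proteins shorten or weaken the response to adenosine, chemokines, sphingosine-1-phosphate and other ligands that act on mast cells beside IgE. Rgs1, Rgs2, Rgs3, Rgs13, Rgs16 and Rgs18 belong to the R4 subfamily, most of whose members are small proteins that consist of little more than the domain. Rgs10 and Rgs14 belong to the R12 subfamily, whose larger members carry further domains that bind inactive alpha subunits and Ras proteins, and Rgs19 belongs to the RZ subfamily, with a cysteine-rich stretch that is lipid modified.

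Most of the R4 genes lay close together. On GRCm38, Rgs2 (chromosome 1, 143999338 to 144004161), Rgs13 (144138654 to 144177372), Rgs1 (144242296 to 144249242) and Rgs18 (144752683 to 144775435) were all annotated on the minus strand within 776098 bases. The 5 protein-coding genes of that stretch were all RGS genes, the fifth being Rgs21, which had at most 2 reads in any sample. Rgs16 was annotated on the plus strand of the same chromosome (153740349 to 153745468), 40025 bases from Rgs8. Rgs3 was on chromosome 4 (62559847 to 62704001), Rgs10 on chromosome 7 (128373621 to 128418758), Rgs14 on chromosome 13 (55369732 to 55384687) and Rgs19 on chromosome 2 (181688419 to 181693977), and no member shared the chromosome of Ptpn22.

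The promoters of Rgs16, Rgs2 and Rgs13 are printed because these genes lie on 1 chromosome and, among the members with a printed change by DEX in activated cells, Rgs16 and Rgs2 had lower values and Rgs13 a higher one. RefSeq promoters on GRCm38.p6, from 250 bases before to 50 bases after a start site, were at hand for 6 of the 9 members (9 promoters). Rgs1, on the same chromosome and also lower with DEX in activated cells (-0.60 ± 0.15 on the log2 scale), had none, as had Rgs14 and Rgs18. The lower value of Rgs2 fell just short of the threshold stated below (adjusted p = 0.0504 by edgeR). Capitals mark the core of a cAMP response element (ACGTCA), the AP-1 site (TGAGTCA), the box named CCAAT, the TATA box (TATAAA) and 1 arm of a glucocorticoid response element (TGTTCT), each searched on both strands. The coordinates are chr1:153740103-153740402 on the plus strand for Rgs16, chr1:144004100-144004399 on the minus strand for Rgs2 and chr1:144177323-144177622 on the minus strand for Rgs13.
Rgs16: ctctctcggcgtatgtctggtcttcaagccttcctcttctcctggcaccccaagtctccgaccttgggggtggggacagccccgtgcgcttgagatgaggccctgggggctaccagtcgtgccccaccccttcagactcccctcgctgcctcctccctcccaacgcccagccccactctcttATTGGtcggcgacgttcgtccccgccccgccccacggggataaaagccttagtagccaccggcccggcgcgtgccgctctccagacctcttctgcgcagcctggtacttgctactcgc
Rgs2: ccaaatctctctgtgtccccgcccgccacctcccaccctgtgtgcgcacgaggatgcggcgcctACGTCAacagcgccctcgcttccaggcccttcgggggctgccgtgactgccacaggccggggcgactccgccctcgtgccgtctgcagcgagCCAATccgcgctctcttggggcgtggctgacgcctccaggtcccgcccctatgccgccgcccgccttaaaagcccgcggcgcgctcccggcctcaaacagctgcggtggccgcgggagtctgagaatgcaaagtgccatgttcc
Rgs13: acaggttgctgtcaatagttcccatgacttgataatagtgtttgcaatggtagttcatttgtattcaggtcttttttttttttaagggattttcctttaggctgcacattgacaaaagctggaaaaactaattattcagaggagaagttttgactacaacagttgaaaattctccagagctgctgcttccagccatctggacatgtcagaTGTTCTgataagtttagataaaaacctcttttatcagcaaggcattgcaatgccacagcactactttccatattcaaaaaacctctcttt
The Rgs2 promoter held 1 ACGTCA at position -186 from the start site, a motif present in 7.51% of the 32851 promoters of the table, and 1 CCAAT at -94, present in 37.4%. The Rgs16 promoter held CCAAT on the other strand at -68, and neither ACGTCA nor TGAGTCA, of which the latter was present in 5.2% of promoters. The Rgs13 promoter held 1 TGTTCT at -40, present in 19% of promoters, and 3 copies of GGAAA, the core letters of an NFAT site, present in 61.3%. Among the member promoters not printed, TGTTCT occurred in those of Rgs3 (-39 and -244) and in 1 of Rgs19 (-193), a gene not called with DEX. GGGCGG, a GC box present in 35.7% of promoters, occurred 4 times in the Rgs2 promoter and 2 times in that of Rgs16 but not in that of Rgs13, whose GC content was 36.7% against 70% for Rgs2, 66% for Rgs16 and a median of 52.7% over all promoters. These matches describe the letters of the windows and are not binding sites.

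The samples held 8612531 to 22143526 gene reads each. Ptpn22 had 130 to 2799 reads in each PEP+/+ sample and 0 to 55 in each PEP-/- sample, so every sample matched its genotype label. Mast cell markers (8 of 8 detected, Kit, Fcer1a and Cpa3 among them) summed to 49570 to 85730 CPM (counts per 1000000 gene reads, after scaling for library size and composition), while lymphocyte markers summed to at most 0.605 CPM, with Cd3e and Ms4a1 at 0, and neutrophil markers to at most 2.35 CPM. The summed basophil list ran from 539 to 623 CPM with IgE alone, 750 to 882 when antigen followed, 228 to 393 with DEX and 431 to 479 with both, with Cd200r3 at a mean of 477 CPM and the defining granule proteases Mcpt8 and Prss34 at 28.1 and 24.7 CPM. The macrophage or monocyte list ran from 72.6 to 238 CPM without and 286 to 849 CPM with DEX, with Cx3cr1 at a mean of 319 CPM and Csf1r at 0.252 CPM. The part of either list in the RGS values was not tested. Numbered and lettered samples stood apart throughout: 8463 of 13305 tested genes (63.6%) differed between the sets, among the members Rgs18 (lettered minus numbered -0.63 on the log2 scale), Rgs2 (-0.44) and Rgs14 (0.26). The main results on the 9 members are therefore given also within each set, and with the set as a block in the model where that changes a call. Where counts are printed for the lists of other genes, they are given with and without the block.

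Changes were tested with edgeR's quasi-likelihood test on all 16 samples, and a change was called where the p-value, adjusted after Benjamini and Hochberg over the 13305 tested genes, was under 0.05. Of the 9 members 8 passed the filter on low counts, while Rgs3 did not. Unless stated otherwise, log2 fold changes (± SE) are the average of both genotypes (4 samples against 4). Antigen without DEX changed 5 of the 8 tested members, 3 upwards and 2 downwards, where 16.7% of all tested genes were called (9.07% upwards, 7.58% downwards). Antigen under DEX changed 4 (2 upwards, 2 downwards, against 12.6% of all genes, 7.19% and 5.42%), DEX in sensitized cells changed 1 (upwards, against 9.37%, 5.40% upwards and 3.98% downwards), and DEX in activated cells changed 3 (1 upwards, 2 downwards, against 10.7%, 5.67% and 4.99%). With the set as a block these counts were 7, 6, 1 and 4, against 37.9%, 37.6%, 26.7% and 33.3% of all genes. In bulk RNA, fewer cells with a transcript cannot be told apart from less transcript per cell.

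**Figure D1:**
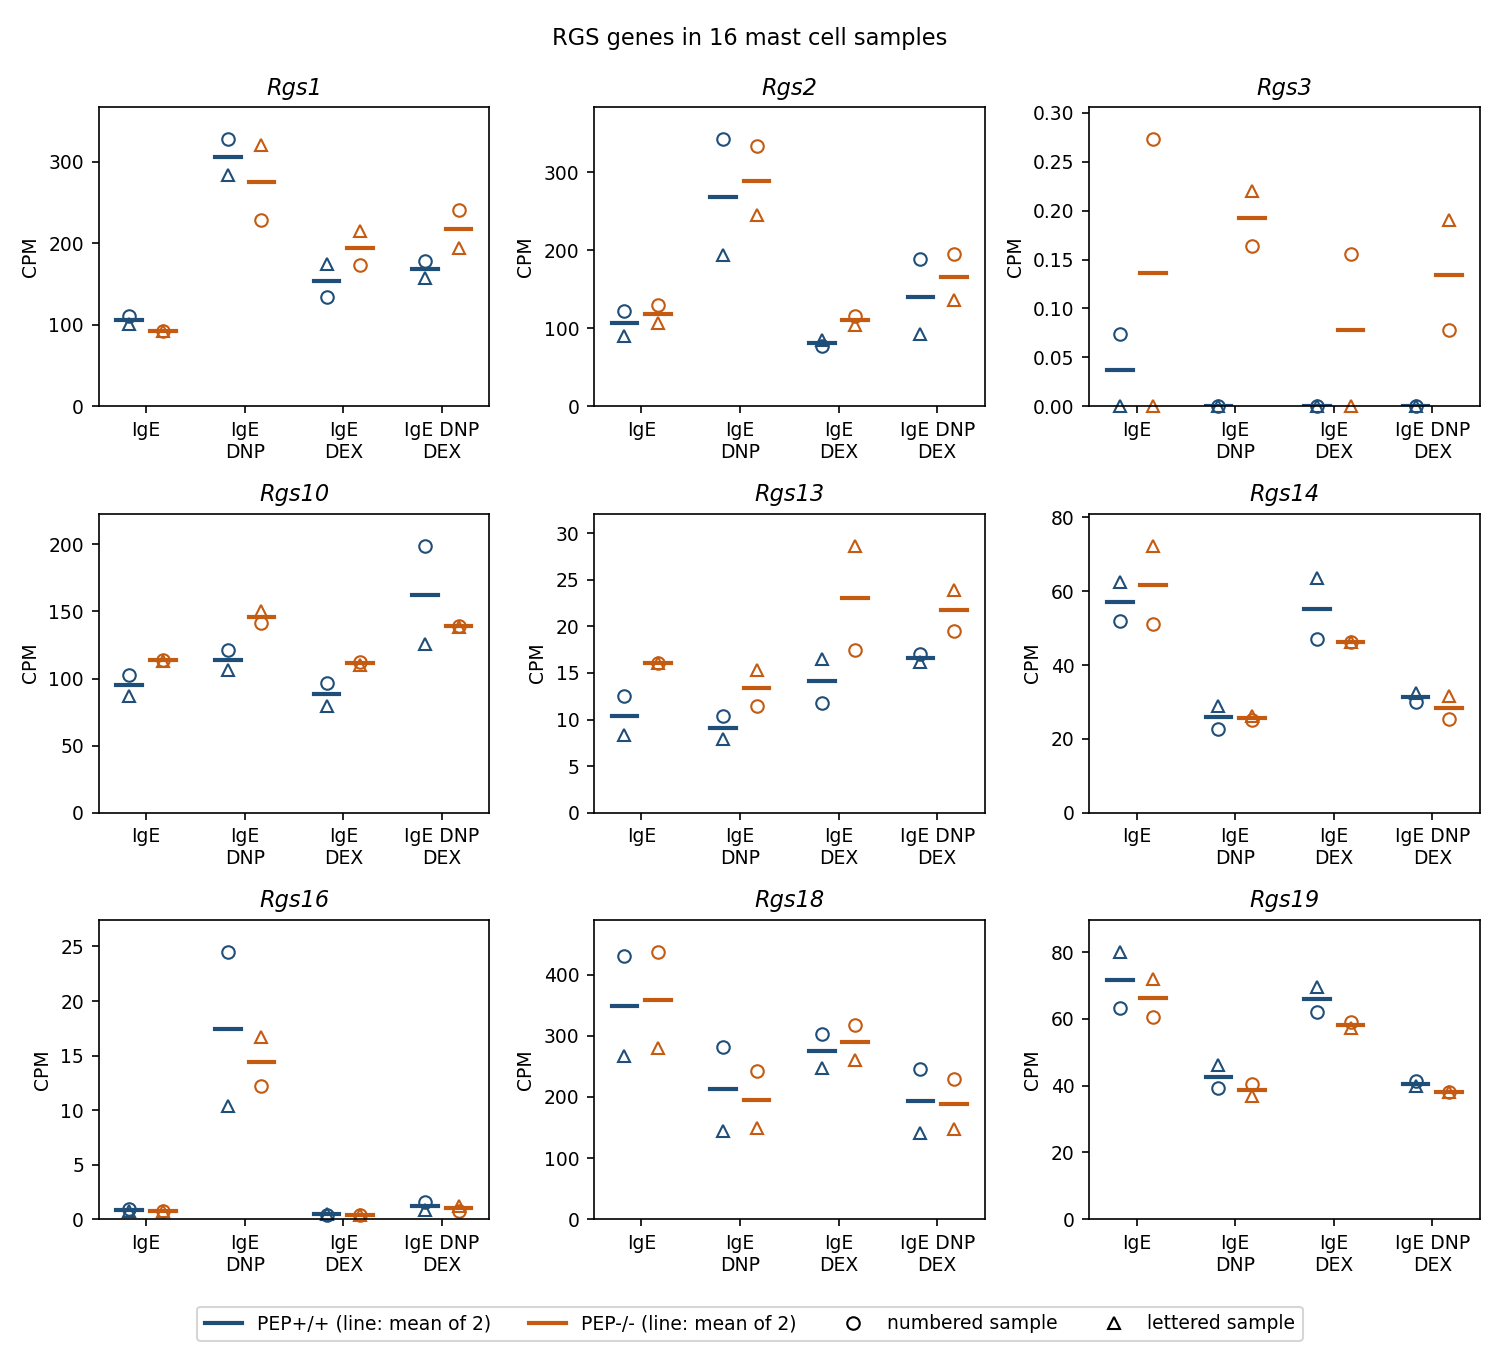
Expression of the 9 RGS genes in CPM (vertical axis, each panel on its own scale from 0) in the 4 treatments (horizontal axis) for PEP+/+ (blue) and PEP-/- (orange), with 1 point per sample, circles for numbered and triangles for lettered samples, and a line at the mean of 2. Rgs16 stands at 10.3 CPM or more in the 4 IgE DNP samples and at most 1.56 CPM in the other 12, and Rgs14 and Rgs19 are lower in the 8 samples with DNP than in the 8 without.

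Scaled per kilobase of exon, Rgs18 was the most abundant member over the 16 samples (127 CPM per kilobase of exon), followed by Rgs10 (70.8), Rgs2 (44.1), Rgs1 (27.2), Rgs19 (23.7), Rgs14 (9.77), Rgs13 (9.41), Rgs16 (1.95) and Rgs3 (0.00668). With the longest annotated transcript as the length, Rgs10 (138) came before Rgs18 (127) and Rgs19 (35.0 CPM per kilobase) before Rgs1 (32.3), so the order of these neighbours depends on the length chosen. The order also turned between conditions. In PEP+/+ cells Rgs1 stood at 15.2 and Rgs19 at 32.1 CPM per kilobase of exon after IgE. After IgE DNP they stood at 44.0 and 19.2. There the mean of Rgs2 (73.9) was also above that of Rgs10 (66.7), and Rgs16 (7.45) above Rgs14 (6.10). In PEP-/- cells Rgs2 (79.7) was below Rgs10 (85.3), while Rgs16 (6.18) was just above Rgs14 (6.05). In the lettered PEP+/+ sample Rgs2 was below Rgs10 and Rgs16 below Rgs14. With the longest transcript as the length the PEP+/+ means did the same, so these orders are uncertain.

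Rgs16 rose most of the members with antigen and was the one that DEX brought down furthest. It codes for a small inducible RGS protein that acts on Gi and Gq subunits. After IgE alone its level was 0.955 and 0.781 CPM in PEP+/+ (numbered, then lettered sample) and 0.728 and 0.720 CPM in PEP-/- cells. After IgE DNP it was 24.5 and 10.3 CPM in PEP+/+ and 12.2 and 16.7 CPM in PEP-/- cells. All 4 activated samples lay far above all 4 sensitized ones, with 92 to 303 reads against 8 to 14, and the increase was 4.31 ± 0.35 on the log2 scale or 19.8-fold (adjusted p = 1.06e-05). It was 4.10 and 3.08 within the numbered and lettered samples of PEP+/+ cells and 3.37 and 3.82 within those of PEP-/- cells, on a log2 scale with 0.5 CPM added. After IgE DEX Rgs16 was at 0.391 and 0.505 CPM in PEP+/+ and 0.415 and 0.407 CPM in PEP-/- cells, with 4 to 12 reads. After IgE DNP DEX it was at 1.56 and 0.812 CPM in PEP+/+ and 0.782 and 1.24 CPM in PEP-/- cells. These activated samples overlapped the sensitized ones without DEX. In activated cells Rgs16 thus fell by 3.88 ± 0.34 on the log2 scale with DEX (adjusted p = 3.24e-05), to 0.0678 of its level. Both of these calls stayed when any 1 of the 16 samples was left out. Under DEX antigen still gave 1.29 ± 0.37 (adjusted p = 0.0432), from 4 to 12 reads to 10 to 13. Leaving out either PEP+/+ IgE DNP sample, the lettered PEP+/+ IgE DNP DEX sample or the numbered PEP-/- IgE DNP DEX sample kept that call. Leaving out any 1 of the other 12 samples ended it, with values between 1.07 and 1.53 over the 16 samples and adjusted p up to 0.156, as did a fit of the compared conditions alone (adjusted p = 0.140). An antisense gene, Gm28513, overlaps Rgs16 in the annotation and was not among the counted genes; the libraries were stranded, and the strand setting of the counting was not given in the sources used here.

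Rgs1 rose with antigen and also with DEX, but DEX lowered it in activated cells. Its protein is best known from lymphocytes, where it restrains chemokine receptors. After IgE it was at 110 and 101 CPM in PEP+/+ and 92.5 and 92.0 CPM in PEP-/- cells. After IgE DNP it was at 328 and 283 CPM in PEP+/+ and 228 and 321 CPM in PEP-/- cells, above every sensitized sample, an increase of 1.55 ± 0.16 or 2.94-fold (adjusted p = 5.22e-05). After IgE DEX it was at 133 and 174 CPM in PEP+/+ and 173 and 215 CPM in PEP-/- cells. These 4 samples also lay above every sample with IgE alone, and the increase was 0.81 ± 0.15 or 1.75-fold (adjusted p = 0.00641), the single change among the tested members that DEX made in sensitized cells. After IgE DNP DEX Rgs1 was at 178 and 158 CPM in PEP+/+ and 241 and 195 CPM in PEP-/- cells. These values overlapped those after IgE DEX, and antigen under DEX gave 0.15 ± 0.15 (adjusted p = 0.616). Within that comparison the numbered samples gave 0.45 and the lettered samples -0.14, so the sets differed in sign. DEX in activated cells lowered Rgs1 by -0.60 ± 0.15 (adjusted p = 0.0290), with -0.86 ± 0.22 in PEP+/+ (adjusted p = 0.0584, and 0.00533 with the block) and -0.34 ± 0.22 in PEP-/- cells (adjusted p = 0.594). Within the sets the PEP-/- values were 0.07 (numbered) and -0.72 (lettered). This fall is the least firm of the 3 Rgs1 calls in this paragraph, and the interaction call given below was lost more often. The fall was not called without any 1 of 7 of the 8 compared samples (all but the numbered PEP-/- IgE DNP sample), with values between -0.69 and -0.45. With only the compared conditions in the fit its adjusted p was 0.106.

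Rgs2 rose with antigen. It codes for an RGS protein with a preference for Gq, the subunit that activates phospholipase C. After IgE it was at 122 and 90.3 CPM in PEP+/+ and 130 and 107 CPM in PEP-/- cells. After IgE DNP it was at 343 and 194 CPM in PEP+/+ and 333 and 245 CPM in PEP-/- cells, all above the sensitized samples. The increase was 1.31 ± 0.26 or 2.48-fold (adjusted p = 0.00445). After IgE DEX it was at 76.7 and 85.2 CPM in PEP+/+ and 116 and 104 CPM in PEP-/- cells. DEX in sensitized cells gave -0.25 ± 0.25 (adjusted p = 0.730), with overlapping samples in PEP-/- cells. After IgE DNP DEX it was at 188 and 92.7 CPM in PEP+/+ and 196 and 137 CPM in PEP-/- cells. In both genotypes the numbered sample was the higher one after IgE, IgE DNP and IgE DNP DEX, and after IgE DEX in PEP-/- cells only. Antigen under DEX gave 0.69 ± 0.25 (adjusted p = 0.09997, and 0.00438 with the block; 1.02 within the numbered and 0.25 within the lettered samples). DEX in activated cells gave -0.87 ± 0.25 (adjusted p = 0.0504, and 4.53e-04 with the block; -0.81 and -0.95 within the sets). DESeq2 (adjusted p = 0.0147), no filter on low counts (6.85e-04) and a filter at a mean count of 10 (0.0454) called it too, and no filter also called the antigen value under DEX (0.0110). Without the lettered PEP+/+ IgE DNP DEX sample the antigen value under DEX was called (adjusted p = 0.0296), and the DEX value was called without the numbered PEP+/+ IgE DNP DEX or the lettered PEP+/+ IgE DNP sample, with adjusted p down to 0.0211.

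Rgs13 went the other way with DEX. Its protein is found in mast cells and germinal centre B cells and is known to restrain degranulation through the IgE receptor. After IgE it was at 12.5 and 8.33 CPM in PEP+/+ and 16.1 and 16.05 CPM in PEP-/- cells, and after IgE DNP at 10.4 and 7.88 CPM in PEP+/+ and 11.5 and 15.3 CPM in PEP-/- cells. After IgE DNP DEX it was at 17.1 and 16.2 CPM in PEP+/+ and 19.5 and 23.9 CPM in PEP-/- cells, above all 4 activated samples without DEX. DEX in activated cells gave 0.78 ± 0.22 or 1.71-fold (adjusted p = 0.0429), with 0.71 within the numbered and 0.81 within the lettered samples. After IgE DEX Rgs13 was at 11.7 and 16.5 CPM in PEP+/+ and 17.4 and 28.7 CPM in PEP-/- cells. DEX in sensitized cells gave 0.48 ± 0.21 (adjusted p = 0.248), from 0.01 within the numbered and 0.88 within the lettered samples. The antigen values were -0.22 ± 0.22 without DEX (95% interval -0.70 to 0.25) and 0.07 ± 0.21 under DEX (-0.39 to 0.54), neither called. The call in activated cells was lost without any 1 of the 8 compared samples or either PEP-/- IgE sample, with values between 0.70 and 0.90 and adjusted p up to 0.146, and with only the compared conditions in the fit (0.0544).

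Rgs18, known from platelets and megakaryocytes, was the member with the largest difference between the sets. After IgE it was at 430 and 267 CPM in PEP+/+ and 437 and 279 CPM in PEP-/- cells, and after IgE DNP at 282 and 144 CPM in PEP+/+ and 242 and 149 CPM in PEP-/- cells. The lower of the sensitized samples lay among the activated ones, yet within each set both genotypes were lower after antigen (-0.61 and -0.89 for the numbered and lettered PEP+/+ samples, -0.85 and -0.91 for those of PEP-/-). The change was -0.79 ± 0.30 (adjusted p = 0.0995, and 5.56e-05 with the block). It was called also without the numbered PEP+/+ IgE DNP sample (adjusted p = 0.0437) and with no filter on low counts (0.00182). After IgE DEX Rgs18 was at 303 and 247 CPM in PEP+/+ and 318 and 260 CPM in PEP-/- cells, and after IgE DNP DEX at 246 and 141 CPM in PEP+/+ and 230 and 148 CPM in PEP-/- cells. Antigen under DEX gave -0.56 ± 0.29 (adjusted p = 0.261, and 8.28e-04 with the block). DEX gave -0.33 ± 0.29 in sensitized and -0.09 ± 0.29 in activated cells, neither called with or without the block.

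Rgs14, which binds both active and inactive Gi subunits, fell with antigen. After IgE it was at 51.8 and 62.4 CPM in PEP+/+ and 51.0 and 72.4 CPM in PEP-/- cells, and after IgE DNP at 22.8 and 28.9 CPM in PEP+/+ and 25.2 and 26.1 CPM in PEP-/- cells. The groups did not overlap, and Rgs14 fell by 1.20 ± 0.16 on the log2 scale (adjusted p = 4.26e-04) to 0.434 of its level. After IgE DEX it was at 47.0 and 63.5 CPM in PEP+/+ and 46.1 and 46.2 CPM in PEP-/- cells. After IgE DNP DEX it was at 30.1 and 32.5 CPM in PEP+/+ and 25.4 and 31.5 CPM in PEP-/- cells, again below every sample without antigen. Antigen under DEX gave -0.76 ± 0.16 (adjusted p = 0.0106, and 0.0505 without the lettered PEP+/+ IgE DEX sample). DEX itself gave -0.23 ± 0.16 in sensitized and 0.21 ± 0.16 in activated cells, neither called.

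Rgs10, a small member of the same subfamily that acts on Gi subunits, moved less and upwards. After IgE it was at 103 and 87.2 CPM in PEP+/+ and 114 and 113 CPM in PEP-/- cells, and after IgE DNP at 122 and 106 CPM in PEP+/+ and 141 and 150 CPM in PEP-/- cells. That increase was 0.31 ± 0.15 (adjusted p = 0.199, and 0.0396 with the block). After IgE DEX Rgs10 was at 96.4 and 79.9 CPM in PEP+/+ and 112 and 110 CPM in PEP-/- cells, and after IgE DNP DEX at 199 and 126 CPM in PEP+/+ and 139 and 138 CPM in PEP-/- cells. Every sample with antigen and DEX lay above every sample with DEX alone, and antigen under DEX gave 0.60 ± 0.15 or 1.52-fold (adjusted p = 0.0217). The call was lost, with values between 0.44 and 0.76 over all samples left out in turn and adjusted p up to 0.1002, without either PEP-/- IgE DEX sample, the lettered PEP+/+ IgE DEX sample or the lettered PEP-/- IgE DNP DEX sample, and with only the compared conditions in the fit (0.0853). Reads of Rgs10 could be shared with Gm15503, a transcript annotated on the same strand, which had 99 reads in all 16 samples together.

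Rgs19, which acts on Gi and Gz subunits, fell with antigen whether or not DEX was given. After IgE it was at 63.3 and 80.1 CPM in PEP+/+ and 60.7 and 72.1 CPM in PEP-/- cells, and after IgE DNP at 39.3 and 46.1 CPM in PEP+/+ and 40.6 and 37.0 CPM in PEP-/- cells. It fell by 0.76 ± 0.12 on the log2 scale (adjusted p = 0.00148), to 0.590 of its level. After IgE DEX Rgs19 was at 62.1 and 69.7 CPM in PEP+/+ and 59.1 and 57.4 CPM in PEP-/- cells, and after IgE DNP DEX at 41.3 and 40.0 CPM in PEP+/+ and 38.2 and 38.0 CPM in PEP-/- cells. The 8 samples with antigen all lay below the 8 without, and the fall under DEX was 0.65 ± 0.12 on the log2 scale (-0.65, adjusted p = 0.00548). Both calls stayed when any 1 sample was left out. DEX gave -0.16 ± 0.12 in sensitized and -0.05 ± 0.12 in activated cells (95% intervals -0.42 to 0.11 and -0.32 to 0.22).

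Rgs3 was at the edge of detection. It had 1 read in all 8 PEP+/+ samples together and 15 reads in the 8 PEP-/- samples, with 0 to 4 per sample. A count of 3, the upper limit that 0 reads allow, corresponds to 0.136 to 0.348 CPM in these libraries, for counting error only. Reads were found in 1 of 8 PEP+/+ and 6 of 8 PEP-/- samples, at no more than 0.273 CPM. With so few reads Rgs3 did not pass the filter and was not tested.

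**Figure D2:**
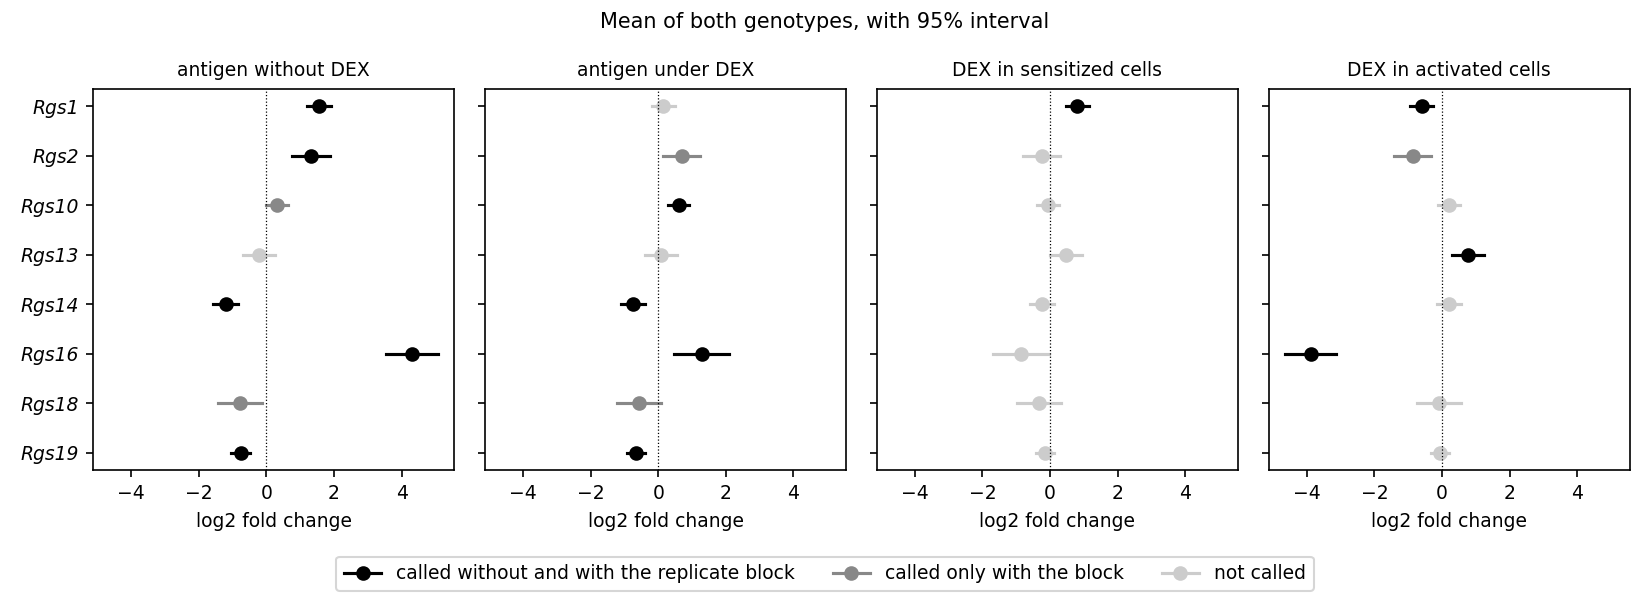
Log2 fold changes of the 8 tested RGS genes (rows) with 95% intervals for antigen without DEX, antigen under DEX, DEX in sensitized cells and DEX in activated cells (panels), averaged over both genotypes. Black marks genes called with and without the replicate block, dark grey those called only with it, light grey those called in neither; Rgs16 stands at 4.31 in the first and -3.88 in the last panel.

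The question whether DEX changed the antigen response itself was answered by the antigen by DEX interaction, the response under DEX minus the response without it. Over all genes 44 of 13305 (0.331%) were called, 0.271% lower and 0.0601% higher, among them 2 members, both lower. The response of Rgs16 was smaller under DEX by -3.02 ± 0.51 (adjusted p = 0.0346), with -2.89 within the numbered and -2.79 within the lettered samples. That of Rgs1 was smaller by -1.41 ± 0.22 (adjusted p = 0.0245), with -0.99 and -1.78 within the sets. Both calls also held with the block (adjusted p = 0.0148 and 9.42e-04, against 1.57% of all genes). Leaving out single samples ended them often: the Rgs16 call was lost without any 1 sample other than the lettered PEP+/+ IgE DNP sample (values from -3.23 to -2.61, adjusted p up to 0.168), and the Rgs1 call without any 1 sample other than the numbered PEP+/+ IgE DEX and the numbered PEP-/- IgE DNP sample (values from -1.50 to -1.25, adjusted p up to 0.104). For Rgs2 the interaction was -0.62 ± 0.36 (95% interval -1.40 to 0.16, adjusted p = 1.00), and for the other 5 members it lay between 0.11 for Rgs19 and 0.45 for Rgs14, none called. The antigen responses without and with DEX come from separate samples, while each comparison with DEX shares samples with a comparison by antigen.

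**Figure D3:**
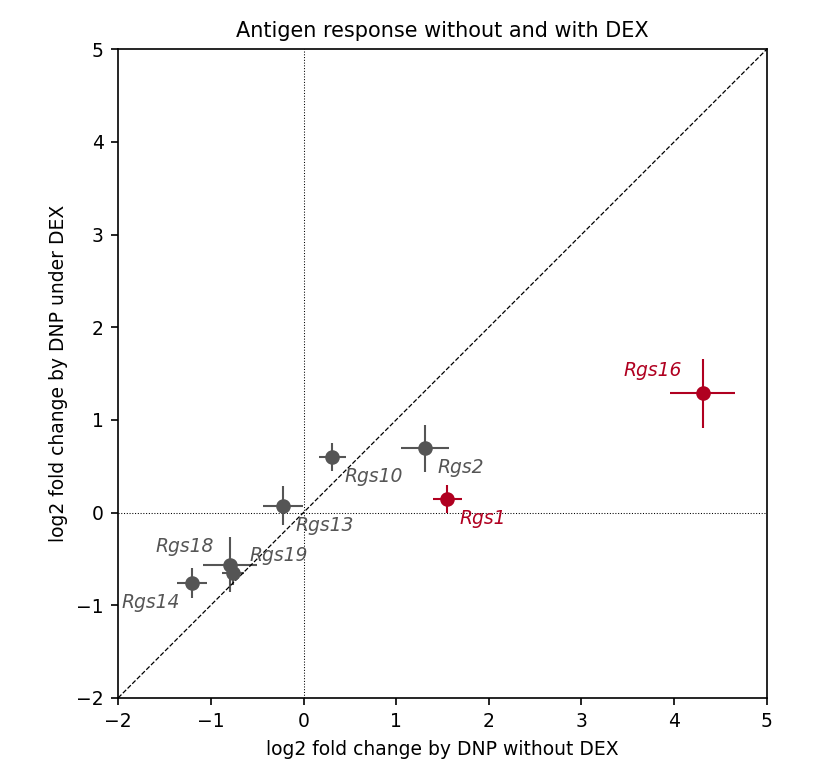
Log2 fold change by DNP without DEX (horizontal) against that under DEX (vertical) for the 8 tested RGS genes, both averaged over genotypes, with bars of 1 SE and a dashed line of equal response. Rgs16 (4.31 against 1.29) and Rgs1 (1.55 against 0.15), in red, lie below the line and were called for the interaction.

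Loss of PEP gave no called change of a member by edgeR without the block. Averaged over the 4 treatments, edgeR called 212 genes (1.59%) and 0 of the 8 tested members, of which 1 had an unadjusted p under 0.05. That member was Rgs13, at a median of 12.1 CPM over the 8 PEP+/+ samples (7.88 to 17.1) and 16.8 CPM over the 8 PEP-/- samples (11.5 to 28.7). It was higher in PEP-/- in 8 of 8 differences between samples of the same treatment and set, by 0.57 ± 0.15 or 1.48-fold on average (adjusted p = 0.0954), with 0.31 within the numbered and 0.79 within the lettered samples. With the block it was called (adjusted p = 0.0101, where 17.4% of all genes were called), and DESeq2 called it too (adjusted p = 0.0198). Within single treatments the Rgs13 difference ran from 0.39 ± 0.30 after IgE DNP DEX to 0.70 ± 0.30 after IgE DEX, none called, where at most 1 of 13305 genes was called per treatment (0.00752%). Rgs10 and Rgs2 were each higher in PEP-/- in 7 of 8 such differences, by 0.18 ± 0.10 (95% interval -0.05 to 0.41) and 0.24 ± 0.18 (-0.15 to 0.63), and Rgs19 lower in 7 of 8, by -0.13 ± 0.09 (-0.32 to 0.06). Rgs16, Rgs18, Rgs1 and Rgs14 lay between -0.21 and 0.09, with intervals reaching from -0.76 to 0.44 over these 4 genes. The 4 treatments of a genotype and set may come from 1 culture, which the sources do not state. The 8 differences of a gene may then not be independent. The edgeR fits with and without the block treat the treatments as separate samples of a genotype.

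Whether PEP loss changed a response was tested by interactions with genotype. Neither the antigen response without DEX nor the DEX response in activated cells differed between genotypes for any of the 13305 genes by edgeR (0.00%; 30 and 95 genes had an unadjusted p under 0.05), and no member did at an unadjusted p under 0.05, against 1 for the DEX response with the block, Rgs10 (-0.57 ± 0.22, adjusted p = 1.00). DESeq2 called 0 genes as well. The intervals were wide. For Rgs1 the genotype difference in the antigen response was 0.04 (95% interval -0.63 to 0.71). For Rgs16 it was -0.01, and no interval is given, because one derived from the test statistic is unreliable for so small an estimate. Its antigen response was 4.31 ± 0.49 in PEP+/+ and 4.30 ± 0.49 in PEP-/- cells. The largest member values were in the DEX response, with -0.58 ± 0.29 for Rgs10 (-1.23 to 0.06) and 0.53 ± 0.31 for Rgs1 (-0.15 to 1.20).

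**Figure D4:**
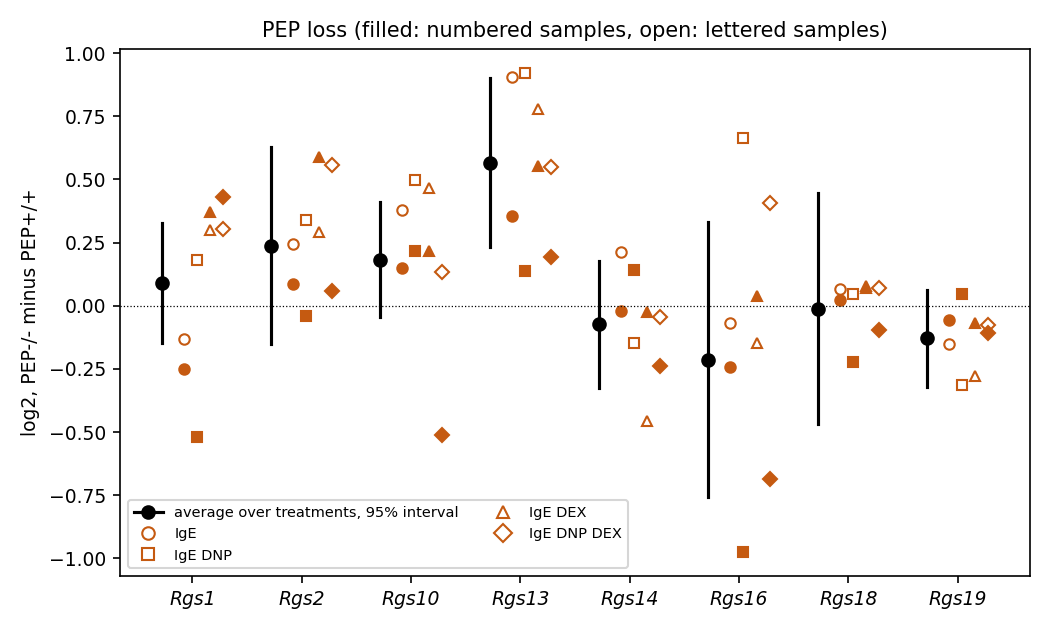
PEP-/- minus PEP+/+ on the log2 scale (vertical) for the 8 tested RGS genes (horizontal), as the average over treatments with its 95% interval (black) and as differences between samples of the same treatment and set (orange; shape for treatment, filled for numbered and open for lettered samples, with 0.5 CPM added). Rgs13 is above 0 in 8 of 8 differences, and the other genes scatter on both sides.

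Ordered by mean level over the 8 conditions, most neighbours had overlapping replicates. The overlap was judged on numbered and lettered samples together, so it includes the difference between the sets. Of the 7 neighbouring pairs per gene, the replicates overlapped in 7 for Rgs18 and Rgs3, 6 for Rgs2, 5 for Rgs1, Rgs13, Rgs14 and Rgs19, 4 for Rgs16 and 3 for Rgs10. The highest condition exceeded the lowest by 42.4 times for Rgs16 (17.4 against 0.411 CPM), 3.57 times for Rgs2, 3.31 times for Rgs1, 2.52 times for Rgs13, 2.41 times for Rgs14 and between 1.84 and 1.90 times for Rgs10, Rgs18 and Rgs19.

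The genes whose pattern was most like that of a member were found by Pearson's r of mean log2 CPM over the 8 conditions, a description over points that share libraries. For Rgs16 these were Slc14a1 (r = 0.996, at most 1.42 CPM), the T cell growth factor gene Il2 (0.985, at most 4.05 CPM) and Runx2 (0.984, 1.75 to 10.8 CPM), all low. For Rgs2 they were Fam53c (0.997), Ankrd28 (0.991) and the apoptosis regulator Cflar (0.989). For Rgs1 they were Hdlbp (0.981), Sox5os3 (0.980, at most 1.42 CPM) and the small Maf factor Maff (0.975, at most 9.84 CPM). For Rgs13 they were Gm1840 (0.986), Cpt1a (0.983) and Eif2a (0.983). Among the tested members, the closest pairs were Rgs14 and Rgs19 (r = 0.970), Rgs18 and Rgs19 (0.968), Rgs14 and Rgs18 (0.949) and Rgs2 and Rgs16 (0.938), and the most opposite was Rgs1 and Rgs14 (-0.887).

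Of the 12 RGS genes outside the list, 4 were tested. Rgs9, best known from photoreceptors and striatum, was the one called without the block, rising by 0.75 ± 0.20 with antigen (adjusted p = 0.0251) and falling with DEX, by -0.83 ± 0.20 in sensitized (adjusted p = 0.0255) and -1.15 ± 0.20 in activated cells (adjusted p = 0.00419). Its mean level over 4 samples was 15.2 CPM with IgE alone, 25.7 with antigen, 8.50 with DEX and 11.5 CPM with both. With the block Rgs9 kept these calls, and Rgs8, with 3 to 53 reads, was also called lower with DEX in activated cells (-1.16, adjusted p = 0.0499). Over all genes 16.7%, 9.37% and 10.7% were called in these comparisons, and 37.9%, 26.7% and 33.3% with the block. Rgs12 stood at 119 to 137 CPM in the 4 treatments and was not called. Rgs11 had 5 to 69 reads in numbered and 97 to 395 in lettered samples, a difference of 3.07 on the log2 scale between the sets. The other 8 genes had at most 8 reads in any sample.

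Of the 14 other proteins with an RGS homology domain, all tested, antigen lowered 1, the receptor kinase gene Grk2 (-0.43 ± 0.10, adjusted p = 0.0149), and 2 with the block. Antigen changed 16.7% of all tested genes, and 37.9% with the block. DEX in sensitized cells lowered Grk5 (-0.77 ± 0.17) and Grk2 (-0.58 ± 0.10) and raised Grk3 (2.50 ± 0.50), and in activated cells the values of these 3 genes were -0.93, -0.72 and 2.33, all called. With the block DEX raised 3 and lowered 2 of the 14 in sensitized cells and raised 2 and lowered 3 in activated cells. The shares of all genes called by DEX were 9.37% and 10.7%, and 26.7% and 33.3% with the block. These kinases phosphorylate activated receptors so that arrestins bind. Arrb2, which codes for such an arrestin, was lower with antigen (-0.83 ± 0.19, adjusted p = 0.0126) and higher with DEX (1.16 in sensitized, 1.39 in activated cells). Of the 7 tested arrestins and other modulators antigen lowered 1, and DEX raised 1 in sensitized and 1 in activated cells. With the block antigen lowered 2, and DEX raised 1 in sensitized cells and raised 1 and lowered 1 in activated cells, against the same shares of all genes.

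Of the 13 genes of G-protein alpha subunits, 12 were tested. Antigen without DEX raised 2 of them, Gnai1 (2.46 ± 0.28, adjusted p = 1.29e-04) and Gna13 (1.94 ± 0.23, adjusted p = 1.55e-04), and lowered 1, Gnaz (-0.95 ± 0.17, adjusted p = 0.00270). With the block antigen raised 4 and lowered 2, against 37.9% of all genes (16.7% without the block). The median log2 fold change of the 12 was 0.07, against 0.00 over all tested genes. DEX lowered Gnai1 in sensitized (-1.19 ± 0.30) and activated cells (-1.07 ± 0.26) and Gnaz in sensitized cells (-1.28 ± 0.17). With the block DEX raised 1 and lowered 5 alpha subunit genes in sensitized cells and raised 2 and lowered 5 in activated cells. Over all genes DEX changed 26.7% and 33.3% with the block, and 9.37% and 10.7% without it. Gnai2 stood at 471 to 610 CPM in the 4 treatments and was not called. Of 11 tested beta and gamma subunit genes antigen without DEX changed 0 in the edgeR test, and 3 with the block, against 16.7% and 37.9% of all genes.

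Of the 32 G-protein-coupled receptor genes listed for mast cells, 26 were tested. Antigen raised 8 and lowered 4, where 16.7% of all genes were called (12 and 7 with the block, against 37.9%), with a median of -0.21 over the 26 against 0.00 over all genes. The largest rises were those of the complement C5a receptor C5ar1 (6.33 ± 0.34) and the adenosine receptors Adora2b (2.65 ± 0.44) and Adora2a (2.51 ± 0.13), and the largest falls those of Lpar6 (-1.97 ± 0.59), the cannabinoid receptor Cnr2 (-1.66 ± 0.26) and the sphingosine-1-phosphate receptor S1pr1 (-1.27 ± 0.38). DEX in activated cells raised 5 and lowered 4, against 10.7% of all genes (9 and 10 with the block, against 33.3%), with the largest rise in the chemokine receptor gene Cxcr4 (4.65 ± 0.29). Of 12 tested effector genes, DEX raised 1, the adenylyl cyclase gene Adcy4, by 3.81 ± 0.56 in sensitized and 5.61 ± 0.73 in activated cells, where 9.37% and 10.7% of all genes were called. With the block DEX raised 4 in sensitized cells, and raised 2 and lowered 2 in activated cells, against 26.7% and 33.3% of all genes. Adcy4 had 0 to 70 reads per sample. Its means were 0.147 CPM with IgE and 0.130 with IgE DNP, against 2.10 with IgE DEX and 2.42 with IgE DNP DEX. The levels without DEX lay near the floor of 0.136 to 0.348 CPM, so the size of its rises is uncertain. None of these lists held a gene called for PEP loss without the block. With it, 3 of the 14 RGS homology genes, 1 of the 11 beta and gamma subunits, 2 of the 7 arrestins and other modulators, 3 of the 12 effectors and 7 of the 26 receptors were called, and 0 of the other RGS and alpha subunit genes, against 17.4% of all genes.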

How the data were processed

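RNA of 16 BMMC samples was sequenced with a stranded mRNA kit. According to the methods and the labels, TopHat2 placed the reads of the authors on GRCm38 and HTSeq counted them. They deposited raw counts per gene as whole numbers, not normalized. The 5 rows that name no gene held 29.1% to 49.6% of a file's total and stayed out of library sizes. Reads aligned to several places were not counted on a gene, so near-identical copies are uncertain.

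Samples were grouped by the labels. Gene symbols and coordinates were taken from GENCODE M21 for GRCm38 (37607 of 39179 identifiers matched), and promoters from RefSeq on GRCm38.p6. The test was the quasi-likelihood test of edgeR 4.0.16, run under R 4.3.3 after TMM scaling (filterByExpr with a minimum count of 10, 1 mean for each of the 8 conditions, 8 residual degrees of freedom, common biological coefficient of variation 0.312), with Benjamini-Hochberg adjustment over all 13305 tested genes. The scripts were tested on simulated data. The total count per sample had a median of 12814043.5, and reads carry no molecular identifiers, so floors cover counting error only.

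Whether numbered and lettered samples pair was checked on the deviations from the condition means: all 28 pairs of conditions correlated over 0.1 (0.453 to 0.799, median 0.718). The set therefore entered a second fit as a replicate block, with 7 residual degrees of freedom. Other alternatives were DESeq2 1.42.0, its size factors in edgeR, 2 other filters, the compared conditions alone, each sample left out and another gene length. The members, the gene lists and the rule for named genes (all members, the list genes with the largest called changes, and the 3 genes most alike in pattern for the 4 members whose mean level varied most) were chosen with earlier results of these data known.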

Additional observations from a re-analysis of the deposited data

Results flagged for a closer look

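The antigen response of 2 members differed between cells without and with DEX by the test of that difference, the interaction of edgeR's fit. For Rgs16 the response was smaller under DEX by -3.02 on the log2 scale (adjusted p = 0.0346), and in 4 of 4 pairs of the same genotype and set the antigen difference was larger without DEX. For Rgs1 it was smaller by -1.41 (adjusted p = 0.0245). Both calls depended on single samples, as described above.

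For Rgs10 and DEX in activated cells, the differences between samples of the same set were above 0 in both sets of PEP+/+ and just below 0 in both sets of PEP-/- cells. In PEP+/+ cells it was 0.71 within the numbered and 0.24 within the lettered samples, and in PEP-/- cells -0.02 and -0.12, on a log2 scale with 0.5 CPM added. The fitted change was 0.51 ± 0.21 in PEP+/+ cells (adjusted p = 0.263, and 0.0432 with the block or 0.0397 without the lettered PEP+/+ IgE DNP DEX sample) and -0.07 ± 0.21 in PEP-/- cells (adjusted p = 0.968), which is no clear direction. The interaction with genotype, -0.58 with a 95% interval of -1.23 to 0.06, was not called by edgeR (adjusted p = 1.00).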

How the results depend on the processing

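With DESeq2, its size factors, a mean count of at least 10, no filter or the replicate block, the count of called members moved by over 1.5 times in 1 comparison. For PEP loss DESeq2 and the replicate block each called 1 member, Rgs13, in place of 0. With the compared conditions alone, where fewer samples estimate the spread, the count fell from 4 to 2 for antigen under DEX and from 3 to 1 for DEX in activated cells. That fit does not exist for PEP loss and the antigen by DEX interaction, which use all conditions. Over the 16 samples left out in turn, the count ran from 5 to 6 for antigen without DEX, 1 to 5 for antigen under DEX, 1 to 1 for DEX in sensitized cells, 1 to 3 for DEX in activated cells, 0 to 1 for the antigen by DEX interaction and 0 to 0 for PEP loss and both interactions with genotype. A condition left with 1 sample is assumed to vary like the others. The replicate block ended no call of a member, and beyond the calls given beside their results it changed only calls of members within 1 genotype. Over all genes it called 5042, 5007, 3548 and 4429 for the antigen and DEX comparisons in the order above, against 2216, 1678, 1247 and 1418 without it, 2310 against 212 for PEP loss and 209 against 44 for the interaction of antigen and DEX. The compared conditions alone gave 953 genes for antigen under DEX and 805 for DEX in activated cells. DESeq2 gave 668 genes for PEP loss and 97 for the antigen by DEX interaction, and no filter gave 472 and 107, and 3 and 24 for the interactions with genotype.

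The sign turned under some alternative for 18 of the 72 printed or summarised fold changes and for 31 of 88 further ones within 1 genotype or treatment, none of them called. The cause was not tested. For Rgs18 and PEP loss the block gave 0.0005. For Rgs16 and the antigen by genotype interaction DESeq2 gave 0.0101, its size factors 0.0047, no filter 0.0289 and the block 0.0206. With no filter Rgs19 stood at 0.0111 for antigen by genotype and -0.0165 for DEX by genotype. The others turned only when a sample was left out. The log2 values then ran from -0.0853 to 0.2709 for Rgs13 and antigen under DEX, from -0.3044 to 0.2045 for Rgs18 and from -0.0860 to 0.0294 for Rgs19 and DEX in activated cells, and from -0.1155 to 0.1276 for Rgs18 and PEP loss. For the antigen by genotype interaction they ran from -0.1866 to 0.2939 for Rgs1, -0.3636 to 0.4581 for Rgs2, -0.0290 to 0.2300 for Rgs10, -0.3962 to 0.1952 for Rgs13, -0.3478 to 0.1517 for Rgs14, -0.4610 to 0.7803 for Rgs16, -0.5518 to 0.4370 for Rgs18 and -0.2040 to 0.1293 for Rgs19. For the DEX by genotype interaction they ran from -0.3635 to 0.6964 for Rgs2, -0.4138 to 0.0249 for Rgs13, -0.3394 to 0.0050 for Rgs14, -0.6994 to 0.5442 for Rgs16, -0.5034 to 0.5141 for Rgs18 and -0.1051 to 0.1258 for Rgs19. Depth limits Rgs3, which was under the filter, and Rgs16, with 4 to 14 reads in the samples without antigen.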
